A study of Homo sapiens with 124 samples.

Results

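Chromosome 10 was followed along both arms in maps of contact with the nuclear lamina, made in 118 single cells. Its members are the 100 kb bins of the chromosome with numbers throughout the 118 cells and at least 1 value other than 0. This rule kept 1297 of the 26426 usable bins of the series, or 129.7 Mb, out of 1356 bins listed for the chromosome. A further 49 bins had no number and 10 were at 0 in every cell. The short arm has 387 of the members (38.7 Mb) and the long arm has 909 (90.9 Mb). The centromere was placed by the longest stretch without numbers, and here 2 stretches tie at 15 bins each, from 39200001 to 40700000 and from 40800001 to 42300000. The 1 usable bin between them was put in neither arm and stayed in the values of the whole chromosome. All positions are those of hg19.

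The cells were KBM7, a near-haploid line from a chronic myeloid leukaemia, of clone 14, labelled haploid and carrying LaminB1 fused to the bacterial methyltransferase Dam. All were treated alike, with 0.5 nM of the stabilising ligand Shield1 for 15 h, and sorted as the smallest 2% of cells positive for both Fucci cell cycle markers. The design holds 124 such cells in 1 group with no control, and the labels name no separate cultures, so SDs measure the spread between cells of 1 clone and no p-value was computed. The assay reads no RNA, so the cell type could not be checked against marker genes, and each value comes from the single copy of the chromosome that the label haploid implies.

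The lamina is a protein mesh on the inner face of the nuclear envelope, and LaminB1 is one of its main components. Large stretches of the genome that touch it are called lamina-associated domains. They are known to be gene-poor, mostly silent and rich in A and T, while clusters of active genes usually lie in the interior of the nucleus. Dam methylates the adenine of GATC near the lamina, and the enzyme DpnI cuts at the methylated motif, so each read of the assay starts from a GATC.

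The motif is shown in a pair of promoters of chromosome 10, from RefSeq with coordinates of GRCh38.p14, a later build than that of the bins. Each window runs from 250 bases before to 50 bases after a gene's start, and the capitals mark GATC. PCDH15 encodes a protocadherin of the inner ear and lies, on the hg19 map, in a long block of frequent contact described below, while VCL encodes the adhesion protein vinculin and lies in the longest stretch of rare contact. The first promoter is at chr10:54801182-54801481 on the minus strand and is 1 of the 2 listed for PCDH15. The second is at chr10:73997866-73998165 on the plus strand.
PCDH15: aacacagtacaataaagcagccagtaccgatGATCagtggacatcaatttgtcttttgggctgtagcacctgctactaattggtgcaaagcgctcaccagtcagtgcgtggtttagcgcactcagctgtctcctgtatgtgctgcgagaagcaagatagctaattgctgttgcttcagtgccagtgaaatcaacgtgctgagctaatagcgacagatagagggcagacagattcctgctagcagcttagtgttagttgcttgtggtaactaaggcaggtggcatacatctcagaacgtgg
VCL: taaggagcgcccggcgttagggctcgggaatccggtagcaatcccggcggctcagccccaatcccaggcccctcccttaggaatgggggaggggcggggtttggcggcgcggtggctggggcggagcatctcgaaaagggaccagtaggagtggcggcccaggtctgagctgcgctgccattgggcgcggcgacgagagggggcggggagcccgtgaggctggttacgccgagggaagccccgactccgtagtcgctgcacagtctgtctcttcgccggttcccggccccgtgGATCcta
Each window has 1 GATC, and the share of G and C is 48.0% in the PCDH15 promoter and 69.3% in the VCL promoter. A second pair goes the other way, with 81.0% in the promoter of ATRNL1, in a block, and 40.7% in 1 of the 2 promoters listed for ITGB1, in a rare stretch. The other promoter of ITGB1 was not read here, so 40.7% describes 1 listed window and not the gene. GATC, which reads the same on both strands, occurs in 690 of the 1680 chromosome 10 promoters listed (41.1%) and in 41.7% of all 35116 promoters, so promoters of chromosome 10 and of the genome hold it at near the same share. A match shows where the assay can read and not that the site was methylated.

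Contact was called where the deposited ratio of observed to expected reads reached 1, and a bin's contact frequency is the share of the 118 cells with such a call. Recovered reads per cell had a median of 135782 (28372 to 385661), and the 663 to 23307 of them on chromosome 10 had a median of 5973. A ratio of 1 in a typical bin stood for 5.63 reads in the median cell and for under 3 reads in 14 cells. Cells numbered 1 to 94 (n = 90) and 96 to 124 (n = 28) differed in depth, with means of 127703 and 170307 reads, so values within each set stand beside the main results.

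Chromosome 10 touched the lamina with 29.5% ± 8.65 of its usable bins per cell (SD, n = 118), against 33.2% ± 5.44 for the bins of all other chromosomes. The lowest cell was at 7.32%, the median at 30.3% and the highest at 49.4%. Chromosome 10 was below the other chromosomes in 85 of 118 cells, with a mean difference of -3.69 ± 6.35 points (chromosome 10 minus others, SD, n = 118). That mean difference is smaller than the spread between cells. Chromosome 10 was above the others in 16 of 28 cells numbered 96 to 124, against 17 of 90 cells numbered 1 to 94, so most cells of the smaller set went the other way. Cells 96 to 124 alone gave -1.18 points and cells 1 to 94 gave -4.47 points, so its size differs by over 1.5 times between the sets. The share on chromosome 10 went with the share on the other chromosomes (r = 0.682, rho = 0.689 over 118 cells) and with the number of reads (r = 0.606, rho = 0.628). These measures share the same libraries.

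Among the 22 sequences of the table with usable bins, chromosome 10 ranked the 14th for mean contact share. Chromosome 8 is not among these sequences, so it is also absent from all values of the other chromosomes. Of the 3 sequences closest to it in usable length, chromosome 11 had a higher share, 37.7% ± 8.90, and chromosome 10 was below it in 104 of 118 cells (difference -8.24 ± 8.24 points). Chromosome 12 was at 30.2% ± 8.85 and sequence 9:22, the joined chromosome of the Philadelphia translocation, at 29.7% ± 8.74. Chromosome 10 lay below chromosome 12 in 60 cells and below 9:22 in 59, and those mean differences of -0.759 and -0.213 points are small beside SDs of 8.52 and 8.46. RefSeq lists 734 protein-coding genes on chromosome 10, or 5.66 per usable Mb, against 9.95 on chromosome 11 and 7.82 on chromosome 12. Across 19 chromosomes, leaving out chromosome 15 with its long part without numbers and the joined sequences 9:22 and 22:9, the mean contact share was lower where genes were denser (rho = -0.782). Chromosome 10 ranked the seventh lowest in gene density, and its contact share was below that of chromosome 11, where genes are denser.

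**Figure D1:**
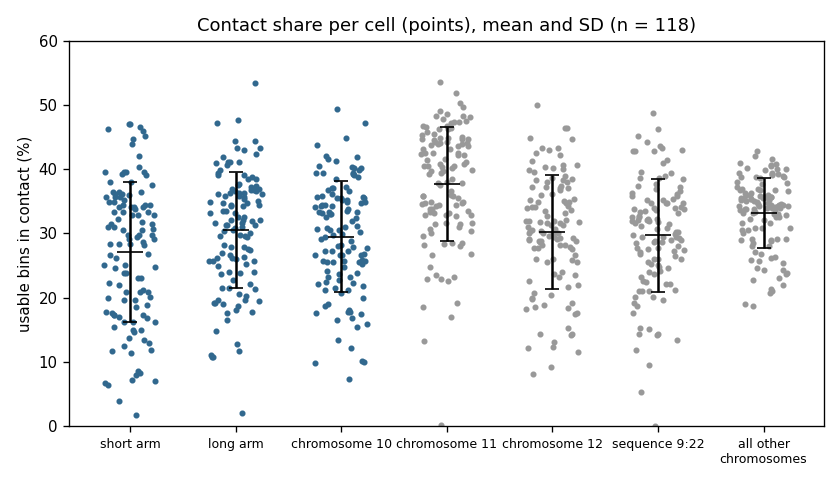
Usable bins in contact per cell in percent, on the vertical axis, for the short arm, the long arm and the whole of chromosome 10 (blue), and for chromosomes 11 and 12, sequence 9:22 and all other chromosomes (grey). Each point is 1 of 118 cells, and bars show the mean and SD. The SD is 10.9 points on the short arm and 9.08 on the long arm, while the points run from 1.81% to 47.0% on the short arm and from 2.09% to 53.4% on the long arm.

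In the mean over cells, contact covered 27.1% ± 10.9 of the short arm (SD, n = 118), against 30.5% ± 9.08 on the long arm. The lowest, median and highest cells were at 1.81%, 29.2% and 47.0% on the short arm, against 2.09%, 31.8% and 53.4% on the long arm. The ranges overlap almost fully. The short arm was the lower one in 79 of 118 cells, with a mean difference of -3.47 ± 9.30 points that is smaller than the spread between cells. It was the higher one in 26 of 90 cells numbered 1 to 94 and in 13 of 28 cells numbered 96 to 124, with mean differences of -3.93 points in the first set and -1.99 points in the other.

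Single cells departed far from this mean in either direction. In cell 57 the short arm had 3.88% of its bins in contact, against 36.3% on the long arm, and in cell 19 the short arm exceeded the long arm by 26.3 points. Cell 73, with 35034 reads, was the lowest for the short arm at 1.81%, or 7 bins, against 16.5% on its long arm. Cell 14 was the lowest for the long arm, with 19.6% on its short arm, against 2.09%, or 19 bins, on its long arm. These low arms also held few reads. The mean ratio was 0.0604 over the short arm of cell 73 and 0.110 over that of cell 57, against 1.01 over the other chromosomes of cell 73 and 0.966 over those of cell 57. Over the long arm of cell 14 it was 0.124. Over all cells the mean ratio was 0.749 ± 0.292 on the short arm and 0.853 ± 0.225 on the long arm, against 0.942 ± 0.0225 on the other chromosomes (SD, n = 118). Contact is called from these same ratios, so they are a second description of the low arms. Why those arms held few reads was not tested. Under 10% of bins were in contact in 9 cells on the short arm and in 1 cell on the long arm.

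The arms went together to a limited degree. After the share on the other chromosomes was removed by regression, the shares of the short and the long arm correlated with r = 0.340 (rho = 0.322, n = 118 cells). Without the removal r was 0.578. Leaving out the 2 cells farthest from the median short arm share gave r = 0.375. Within cells 1 to 94 r was 0.247, and within cells 96 to 124 it was 0.462. The arms of a cell share its library and its depth.

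Most bins of chromosome 10 were either rarely in contact or in contact in an intermediate share of cells, as were most usable bins of the series. At 5% or less of cells stood 524 bins, or 40.4% of the chromosome, where 38.8% of all usable bins are that rare. Of these, 274 bins (21.1%, against 22.3% of all usable bins) were in contact in 0 of 118 cells. A count of 0 allows a frequency of up to 2.54% for each by the limit of 3 counts and up to 3.08% by the exact interval. At 50% or more stood 404 bins (31.1%), against a background of 35.4% over all usable bins. Bins at 80% or more numbered 140, or 10.8% of the chromosome, where the background is 15.1%. These 140 bins held 30.7% of the chromosome's contacts, against 39.2% held by that class over all usable bins. The 445 bins at 20 to under 80% made up 34.3% of the chromosome, near the 33.9% over all usable bins. They held 62.7% of its contacts, against 55.8% over all usable bins. At the top of the scale, 3 bins (0.231%) were in contact in at least 90% of cells, against 2.03% of the bins of the other chromosomes. Of the chromosomes closest in length, 2.98% of chromosome 11, 0.611% of chromosome 12 and 1.74% of 9:22 were that frequent.

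The arms differed in the same class. In contact in 80% or more of cells were 20 bins of the short arm (5.17%), against 120 of the long arm (13.2%). The shares at 5% or less were close, at 41.6% on the short arm and 39.8% on the long arm. The frequent class changed with depth: with each of 109 cells thinned to 50000 reads, 2.33% of the short arm, 7.26% of the long arm and 5.78% of chromosome 10 stood at 80% or more, against 9.85% of the other chromosomes. Without the 14 cells of under 3 reads per ratio of 1, the shares were 9.56% of the short arm, 18.0% of the long arm and 15.5% of chromosome 10, against 18.8% of the other chromosomes. In cells 96 to 124 the order was kept with smaller gaps, at 11.9% of the short arm and 16.1% of the long arm, and at 14.8% of chromosome 10 against 16.3% of the other chromosomes.

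**Figure D2:**
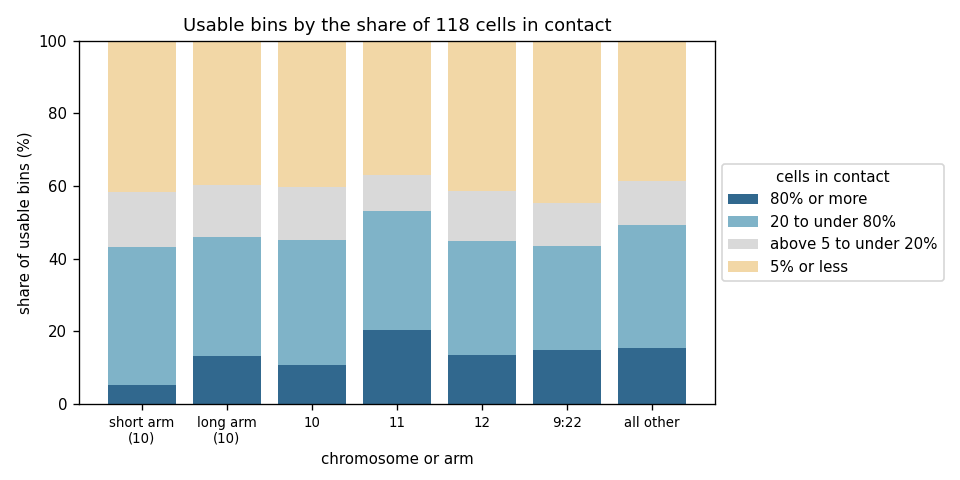
Usable bins in percent, on the vertical axis, by the share of the 118 cells in contact, for the arms of chromosome 10, the whole chromosome, chromosomes 11 and 12, sequence 9:22 and all other chromosomes. The dark blue part (80% or more of cells) is 5.17% of the short arm and 13.2% of the long arm, and 10.8% of chromosome 10 against 15.3% of all other chromosomes.

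Along the chromosome, parts of frequent contact alternated with parts of rare and of intermediate contact. In windows of 10 Mb, the highest mean frequency was 59.4% ± 18.3 (SD over cells, n = 118), from 50000001 to 60000000, next to the centromere-near window of the long arm, 42300001 to 50000000, at 11.7% ± 10.9. The lowest was 9.93% ± 7.33, from 70000001 to 80000000. The windows of the short arm were more even, at 25.6%, 30.6%, 32.1% and 19.5% from the end to the centromere.

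A bin at 50% or more of cells with its neighbours for at least 1 Mb was called a block, a rule chosen after the values were seen. It gave 14 blocks with 29.8 Mb in all, 5 on the short arm (7.2 of 38.7 Mb) and 9 on the long arm (22.6 of 90.9 Mb). The rule sets their frequencies and, to a large part, how many cells touched each of them, so these values are descriptions. In the median cell, 12 of the 14 blocks had over 50% of their bins in contact. All 14 did so in 29 cells, and the lowest cell, cell 1, had 2.

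**Figure D3:**
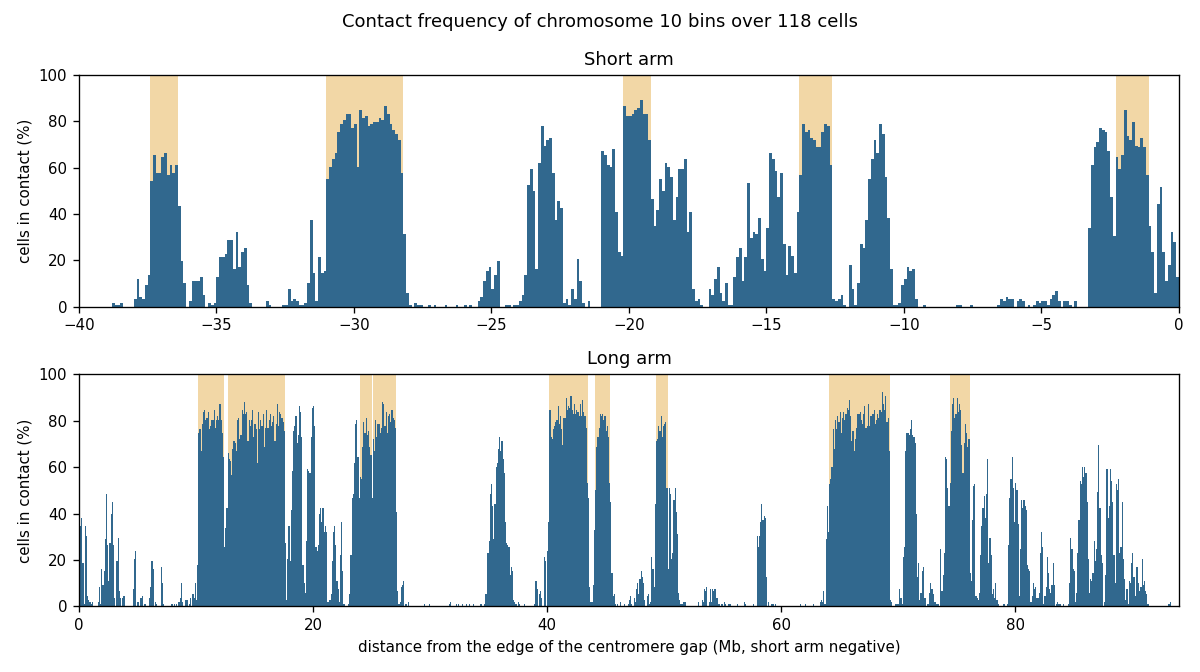
Contact frequency of each usable bin of chromosome 10 in percent of 118 cells (vertical axis) by its distance in Mb from the edge of the centromere gap (horizontal axis), with the short arm above and the long arm below. Pale bands mark the 14 blocks at 50% or more of cells, of which 5 are on the short arm and 9 on the long arm. Between them run stretches at or near 0, the longest of 6.9 Mb on the long arm, and other parts of intermediate frequency.

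The longest block of the long arm ran from 106400001 to 111600000 (5.2 Mb) with a mean frequency of 79.4% ± 23.6 over cells. No cell was without contact in it, the median cell had 87.5% of its bins in contact and 103 of 118 cells had over 50%. On the hg19 map it spans SORCS3 and SORCS1, genes of sorting receptors of neurons, which RefSeq lists as neighbours of each other. It also held the most frequent bin of the chromosome, 110900001 to 111000000, in contact in 109 of 118 cells (92.4%, exact interval 86.0 to 96.5%). Its stretch from 110400001 to 111300000 was at 80% or more in every bin, with a mean of 85.4% ± 23.3.

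The next block, from 55000001 to 59900000 (4.9 Mb), had a mean of 77.0% ± 24.4, with 2 cells without contact and 104 cells over 50%. It holds PCDH15 and the gene-poor part around ZWINT, which encodes a kinetochore protein. Close before it, the block from 52500001 to 54700000 (2.2 Mb, 79.0% ± 27.0) lies in the part of PRKG1, a kinase that responds to cyclic GMP, and of DKK1, a secreted inhibitor of Wnt signalling. The pair of blocks was joined in single cells: the longest contact run of the chromosome, 7.5 Mb from 52500001 to 60000000, crossed both of them in cells 82 and 85.

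The block from 82500001 to 85800000 (3.3 Mb) was the highest of the long arm in the mean, 81.3% ± 25.8, and lies over NRG3, a neuregulin that binds the receptor ERBB4. It contains the longest stretch at 80% or more in every bin, 1.9 Mb from 83700001 to 85600000 with 84.9% ± 26.7, in which 62 cells had every bin in contact and 3 had none. The bin from 84300001 to 84400000 was in contact in 107 of 118 cells (90.7%, exact interval 83.9 to 95.3%). The stretch averaged 89.3% in cells 96 to 124, against 83.6% for cells 1 to 94.

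The other blocks of the long arm were less frequent in the mean than that at NRG3. Those from 66300001 to 67300000 (69.8% ± 32.3) and from 67400001 to 69400000 (79.1% ± 26.8) fall before and over CTNNA3, a catenin gene with the synaptic protein gene LRRTM3 inside it. That from 116700001 to 118400000 (76.9% ± 25.2, 0 cells without contact) covers ATRNL1 and GFRA1, a receptor for the growth factor GDNF. That from 86400001 to 87700000 (73.8% ± 31.1) overlaps GRID1, a glutamate receptor gene. The ninth block of the long arm, from 91600001 to 92600000, stood at 73.9% ± 33.0.

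On the short arm the block from 8200001 to 11000000 (2.8 Mb) had a mean of 75.6% ± 28.8, with 4 cells without contact and 97 over 50%. It lies in the gene-poor part between GATA3, a transcription factor of T cells, and CELF2, a splicing regulator. RefSeq lists no protein-coding gene between that pair. It gives CELF2 a length of 874 kb, so the end of the block may lie inside CELF2. The block from 19000001 to 20000000 had the highest mean of all 14, 83.1% ± 26.8, and lies at MALRD1. Its bin from 19600001 to 19700000 was the most frequent of the short arm, in contact in 105 of 118 cells (89.0%, exact interval 81.9 to 94.0%). The other blocks were from 25400001 to 26600000 at GPR158 and MYO3A (71.9% ± 33.3), from 36900001 to 38100000 at ANKRD30A (69.6% ± 31.7) and from 1800001 to 2800000 between ADARB2 and PFKP (60.2% ± 38.4). The last of these was the least stable of the 14, with 19 cells without contact and 72 over 50%.

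The blocks did not move in step between the sets of cells. Contact was more frequent in cells 96 to 124 in all 5 blocks of the short arm, for example 91.4% against 80.6% in cells 1 to 94 from 19000001 to 20000000. On the long arm 5 of the 9 blocks were higher in cells 96 to 124 and 4 were lower. Among the higher ones, the block from 86400001 to 87700000 averaged 83.5% in cells 96 to 124, against 70.8% in cells 1 to 94. Among the lower ones, the block from 55000001 to 59900000 averaged 70.7% in cells 96 to 124 and 78.9% in cells 1 to 94, and the one from 66300001 to 67300000 averaged 60.0% in cells 96 to 124, against 72.9% for cells 1 to 94. The lower ones run against the chromosome-wide share, at 35.4% for cells 96 to 124 and 27.6% for cells 1 to 94. The sets follow the sample numbers alone, and their part in these values was not tested.

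**Figure D4:**
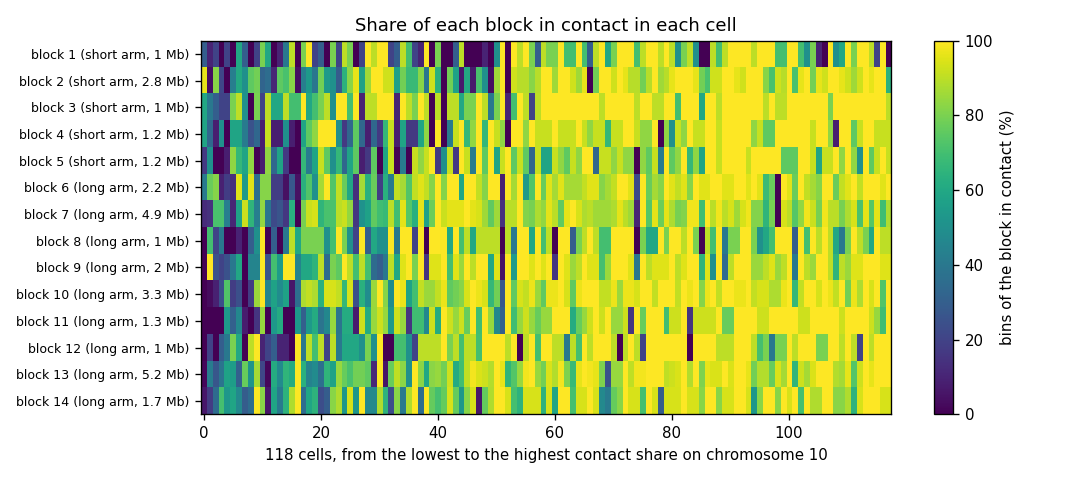
Share of the bins of each block in contact (colour, percent) in each of 118 cells, with the 14 blocks in chromosome order from the short arm's end (top) and the cells ordered by their contact share on chromosome 10. Dark cells in a row of bright ones show a block left out by a cell that touched the lamina elsewhere on the chromosome, and the block from 1800001 to 2800000, the top row, has the most such cells with none of its bins in contact, 19.

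Rare contact reached longer single stretches than contact at 80% or more, but the rare class also holds more bins, 524 against 140. How far the size of the classes bears on this was not tested. The median lengths were equal in both classes, at 0.3 Mb on the short arm and 0.2 Mb on the long arm. The short arm, of 38.7 Mb, had 5 stretches of at least 1 Mb at 5% or less (11.4 Mb). The long arm, of 90.9 Mb, had 10 (25.9 Mb). At 80% or more the short arm had 0 and the long arm 1. These counts are for arms of unlike length, and none is given here for another chromosome. The longest stretch at 5% or less ran from 70100001 to 77000000 (6.9 Mb). In it, on average 0.197% ± 0.756 of the bins were in contact and 108 of 118 cells had none. The hg19 map places there a dense series of genes expressed in many tissues. They include TET1, which oxidises methylated cytosine, SRGN, a proteoglycan of blood cell granules, VCL and the kinase gene ADK. From 101100001 to 105900000 (4.8 Mb) the mean was 0.282% ± 0.979 with 107 cells at none, over genes such as PAX2, a transcription factor of kidney development, and NFKB2, a subunit of NF-kappa-B. From 96700001 to 100200000 (3.5 Mb) it was 0.508% ± 2.20.

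On the short arm the longest rare stretch ran from 29600001 to 34600000 (5.0 Mb), with a mean of 0.966% ± 2.87 and 99 cells with no contact. It covers the transcription factor gene ZEB1, the integrin gene ITGB1 and the receptor gene NRP1. The stretches from 11200001 to 13900000 (0.596% ± 1.99) and from 5400001 to 6800000 (0.484% ± 2.42) followed. Each of these 6 stretches had a higher mean in cells 96 to 124, the deeper set, than in cells 1 to 94. From 29600001 to 34600000 it was 1.86% against 0.689%. The mean ratio there was also higher in cells 96 to 124, at 0.157 against 0.0460, and the part of depth was not tested. The reads expected in these 6 stretches were ordinary, with medians from 0.934 to 1.08 of the median bin of the series.

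A small island broke the rare part of the distal long arm. From 100200001 to 101000000 (0.8 Mb) 35.2% ± 38.6 of the bins were in contact, against 1.59% in the 5 Mb before it and 0.661% in the 5 Mb after it. The island had no contact in 49 cells and over 50% of its bins in contact in 39. It was chosen after the values were seen, as the run at 20% or more with the lowest flanks. On the hg19 map it coincides with HPSE2, a gene of 859 kb in RefSeq that encodes heparanase 2.

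Stretches were also listed in a band of 40 to under 60% of cells, which is narrower than the intermediate class described above. Stretches of that wider class were not counted, and how far the width of the band sets their length was not tested. Within the band the short arm had 25 stretches and the long arm 43, and none of them reached 1 Mb. The longest, from 122800001 to 123300000 (0.5 Mb), had a mean of 43.7% ± 40.5, and in it 38 cells had no contact and 49 had over 50%. Cells 96 to 124 had a mean of 63.6%, and cells 1 to 94 of 37.6%. The stretch from 130300001 to 130700000 averaged 50.4% ± 38.4. The short arm stretch from 15500001 to 15800000 averaged 54.0% ± 43.6, with all of its bins in contact in 48 cells and none in 38. In these stretches most cells had over 50% of the bins in contact or none. Contact in some bins but at most 50% of them was found in 31, 35 and 17 cells, in the order named. The SDs of about 40 points rest on few bins and do not by themselves show an all-or-none pattern.

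Frequency changed little between most neighbouring bins and sharply at a few. The median step over 1281 neighbouring pairs was 3.39 points, and 7 pairs differed by 50 points or more. The steepest rise was on the short arm, from 18900001 (22.0%) to the next bin at 19000001 (86.4%): 26 cells had both bins in contact, 76 had only the second and 0 only the first. The step of the same size on the long arm closed the SORCS1 block, with 66.9% at 111500001 and 2.54% at 111600001, where 76 cells had only the first bin, 3 had both and 0 only the second. Beyond it lie XPNPEP1, a peptidase gene, and ADD3, a gene of the membrane skeleton. At 26600001, the end of the block at MYO3A, the frequency was 3.39% against 61.0% one bin before. A step of the same size stood at 118400001, with 14.4% against 72.0% one bin before. Over the 7 steps of 50 points or more, cells in contact on the rare side alone numbered 0 at 4 borders, 1 at 118400001 and at 61400001, and 5 at 52500001.

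The ends of the arms had little contact. In the outer 2 Mb, 11.4% ± 10.1 of the bins were in contact on the short arm and 0.169% ± 0.909 on the long arm (SD, n = 118). The short arm value came from the start of the block at 1800001, and the outer 1 Mb alone was at 0.508% ± 2.88. Contact was absent in 114 cells in the outer 2 Mb of the long arm, and in 114 cells in the outer 1 Mb of the short arm.

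Beside the centromere gap the arms differed. The 2 Mb of the short arm next to it had 46.6% ± 23.0 of bins in contact, against 10.5% ± 9.50 on the long arm. This short arm window, from 37200001 to 39200000, holds most of the block from 36900001 to 38100000, whose bins were at 56.8% to 84.7%. Beyond the block, its bins ran from 5.93% to 51.7%, against 0% to 38.1% in the window of the long arm. How far the arms differ without the block was not tested. Over 10 Mb the means were 18.6% ± 9.43 on the short arm and 9.47% ± 9.06 on the long arm, where 7.9 Mb were usable. Bins there expected few reads, with medians of 0.517 and 0.519 of the median bin in the 2 Mb of the short and the long arm, so the medians were alike. The lowest bins expected 0.0443 of the median bin on the short arm and 0.0222 on the long arm, where a single read decides contact. The lone bin between the number-less stretches was in contact in 2 cells, and its expected part was 0.00633 of the median bin, so that a single read decides contact in it.

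Contacts formed runs of consecutive bins. Of the contact bins of chromosome 10, 52.0% lay in runs of at least 1 Mb (49.2% ± 15.7 per cell, SD, n = 118), against 53.1% on chromosome 11, 58.2% on chromosome 12 and 55.6% on 9:22. The share was 45.1% on the short arm and 54.6% on the long arm. A cell had 82.0 ± 18.8 runs on the chromosome, with a mean length of 0.466 Mb. Thinned to 50000 reads, 35.4% of contact bins lay in such runs, and with gaps of 1 bin bridged 72.3% did. The longest run of a cell lay in or over the block from 106400001 in 45 cells, that from 55000001 in 27, that from 52500001 in 15 and that from 82500001 in 14. A run over more than 1 block was counted for each of them, so these counts overlap. Some longest runs lay in no block, such as that of cell 116 from 77200001 to 78700000. The longest run on the short arm in any cell was 3.3 Mb, from 18200001 to 21500000 in cell 24, and the block from 8200001 held the longest run of the whole chromosome in 10 cells.

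The strength of the signal followed the frequency. Among cells in contact, the median ratio of a bin was 1.42 in the 188 bins at above 5 to under 20% of cells, 1.98 at 20 to under 80% and 2.53 at 80% or more. The other chromosomes had 1.46, 1.99 and 2.50 in the same classes. Frequency and ratio come from the same values, so this is a description. Frequency was nearly unrelated to the expected reads of a bin (rho = 0.0539 across 1297 bins), and none of the 140 bins at 80% or more was among the 54 bins with under 3 expected reads per ratio of 1 in the median cell.

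Contacts of neighbouring bins occurred in the same cells, and the relation faded with distance. It was measured over 118 cells for the 445 bins at 20 to under 80%, after the contact share on the other chromosomes had been removed. The mean Pearson correlation was 0.479 for neighbours, 0.264 between 1.1 and 2 Mb, 0.181 between 2.1 and 5 Mb and 0.0844 at over 20 to 50 Mb within an arm. For pairs with bins of other chromosomes it was 0.000903, a value that the removal itself holds near 0. Between the arms it was 0.136 at 5.1 to 10 Mb, against 0.152 within an arm, and 0.109 at over 10 to 20 Mb, against 0.122 within an arm. Beyond 50 Mb the order turned, with 0.0327 between the arms, against 0.00552 within an arm. Over all pairs between the arms the mean was 0.0424. The bins share libraries, and the pairs share bins.

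**Figure D5:**
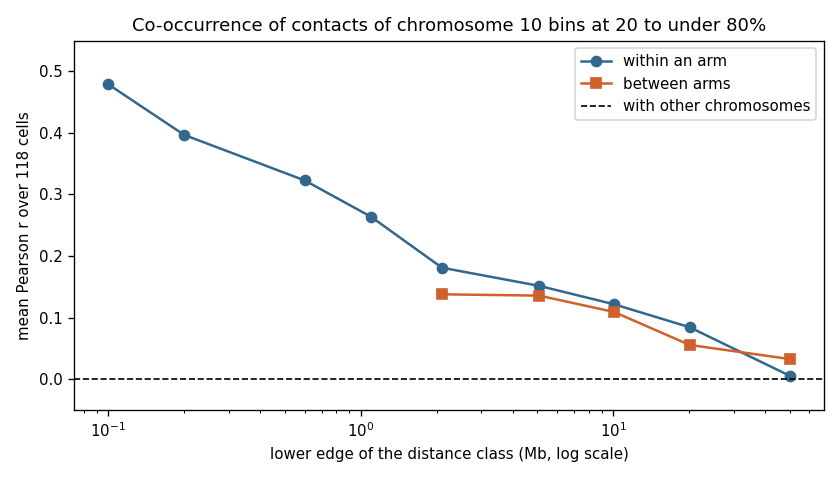
Mean Pearson r of contacts in bin pairs of chromosome 10, over 118 cells (vertical axis) by the lower edge of the distance class in Mb (horizontal axis, log scale), within an arm (blue circles) and between arms (orange squares). The dashed line is the mean with bins of other chromosomes, 0.000903. Within an arm it falls to 0.00552 beyond 50 Mb, and the values between arms lie under those within an arm up to 50 Mb and above them, at 0.0327, beyond it.

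Whole blocks were compared in the same way. Pairs on different arms had a mean r of 0.153 over 45 pairs, against 0.373 over 46 pairs on the same arm, but the pairs on different arms lay farther apart, from 14.4 Mb. At distances of 14 to under 50 Mb the means were 0.206 over 17 pairs on different arms (0.103 to 0.401) and 0.322 over 27 pairs on the same arm (0.0777 to 0.575), so the ranges overlap. Beyond 50 Mb they were 0.121 over 28 pairs on different arms and 0.131 over 3 pairs on the same arm. Blocks next to each other on an arm averaged 0.533 over 12 pairs. The highest values were 0.782 for the blocks from 66300001 and 67400001, 0.734 for those from 52500001 and 55000001, and 0.708 for those from 82500001 and 86400001, each less than 1 Mb apart. The highest pair across the centromere was the ANKRD30A block of the short arm, from 36900001, with the PRKG1 block of the long arm, from 52500001, 14.4 Mb apart (r = 0.401).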

How the data were processed

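Single-cell DamID of LaminB1 was analysed in 118 of 124 cells (cells 33, 34, 44, 86, 95 and 120 were not used here). The authors deposited 1 table that gives, per 100 kb bin and cell, the ratio of observed reads to expected reads, as its name and values show. How the expected part was made is not stated in these sources. Per the submitters' processing notes, cutadapt, Bowtie2 2.1.0 and hg19 were used. An unfused Dam profile was not used here.

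Whole reads were recovered from the ratios (100% of values within 0.02 reads of a whole number). Contact was a ratio of at least 1. The members, lists and tests were chosen with earlier results of these data known. Named were the 3 longest stretches per arm at 80% or more, at 5% or less and at 40 to under 60%, the 3 most frequent bins per arm, the arm ends and the centromere flanks, and the 3 sequences closest in usable length. The blocks and the island were added after the values were seen. Correlations over cells are descriptions. Scripts ran in Python 3.11.15 with numpy 2.4.6 and scipy 1.17.1 and were tested on simulated data. Exact Clopper-Pearson intervals (95%) and the limit of 3 counts cover the counting of cells only. Alternatives were other contact values (0.5 and 2), thinning to 50000 reads, the sets of cells, deep cells only, bridged runs and shorter ends. No hg19 annotation was used, so genes are placed from general knowledge of the hg19 map, without values per gene, and prepared gene lists were not tested. RefSeq gave gene counts, neighbours, lengths and promoters.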

Additional observations from a re-analysis of the deposited data

How the results depend on the processing

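Of 64 values for 10 results under 9 alternatives, 52 moved by less than the spread between cells (or 1.5 times for percentages of bins, 0.1 for the correlation) and 12 moved further. Percentages cannot change sign, so only the differences and the correlation of the arms could, and 0 values did. For the differences, -3.47 and -3.69 points, the spread of 9.30 and 6.35 points is larger than the value itself. A move as large as the difference was thus counted as small. The largest effects came from the contact value. At a ratio of at least 2 the contact share was 14.6% on the short arm and 16.9% on the long arm. Bins at 80% or more then made up 0% of chromosome 10, and 18.1% of contact bins lay in runs of 1 Mb. For that 0% no value of the other chromosomes is given here, so whether it is particular to chromosome 10 was not tested. At a ratio of at least 0.5, bins at 80% or more made up 21.7% (27.0% on the other chromosomes) and the outer 2 Mb of the long arm were at 1.40%. Thinned to 50000 reads, 5.78% of bins stood at 80% or more and 35.4% of contact bins lay in long runs, and bridging gaps of 1 bin gave 72.3%. The outer 1 Mb of the short arm was at 0.508%. The correlation of the arms was 0.462 in cells 96 to 124 and 0.578 without the removal of the share on the other chromosomes. The short arm stayed below the long arm in the mean, and chromosome 10 below the other chromosomes, under the 6 alternatives run for each. In the 14 shallowest cells a ratio of 1 stands for 1.17 to under 3 reads, so a few reads decide contacts there.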

Other observations

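Very low contact shares in single cells were not limited to the short arm of cell 73 and the long arm of cell 14. Sequence 9:22 had 0% of its bins in contact in cell 77, and chromosome 11 had 0.153% in cell 58, while chromosome 10 exceeded those sequences by 38.5 points in cell 77 and by 25.4 points in cell 58. The lowest share of chromosome 10 in any cell was 7.32%. Contact is called from the reads, so a low share and few reads go together. Whether a sequence missing from the library bears on these values was not tested.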
